A study of Mus musculus with 9 samples.

Results

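The 10 genes described here (Cdkn1a, Mdm2, Bax, Bbc3, Ccng1, Gdf15, Trp53inp1, Sesn1, Eda2r and Phlda3) are established transcriptional targets of p53. They were chosen by name as the rows of these genes, 10 of the 23747 genes measured in every nucleus, and were read by cell type, group and mouse. The readout was sNuc-seq, the sequencing of RNA from single nuclei. Droplets tag each nucleus with a barcode and each captured transcript with a unique molecular identifier (UMI). It was run on heart tissue of 9 C57BL/6 mice, supplied at 8 weeks of age and operated on after acclimatization and gavage, with 3 mice in each of 3 groups. Sham mice were gavaged with vehicle for 7 days and then had the needle passed without ligation. I/R mice were given the same vehicle for 7 days, and their left anterior descending artery was then tied off for 30 min and reopened for 24 h. SBP mice received Shexiang Baoxin Pill, a herbal preparation that the labels call MUSKARDIA, in place of plain vehicle, before identical ischemia and reperfusion. There was no sham group given the drug, no allele or transgene was involved, and per the study's methods the tissue came from below the ligation. SBP was therefore seen only in injured hearts.

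The p53 protein is a transcription factor that accumulates after DNA damage, oxidative stress and hypoxia, because the ubiquitin ligase MDM2 then no longer degrades it as fast. It binds to pairs of short half-sites in DNA and raises genes that halt the cell cycle, start apoptosis, limit oxidants or restrain p53 itself. In the heart, reopening a blocked artery brings a burst of oxidants to cardiomyocytes that no longer divide. Several of these genes are also driven by other stress pathways, so that the name of the list does not show that p53 was active.

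In GENCODE M21 (GRCm38) all 10 are protein-coding genes. Cdkn1a lies at chr17:29090976-29100727 on the plus strand, Ccng1 at chr11:40748552-40755311 and Mdm2 at chr10:117688875-117710758, both on the minus strand, Bax at chr7:45461697-45466898 (minus), Sesn1 at chr10:41809935-41908424 (plus) and Trp53inp1 at chr4:11156431-11174379 (plus). Bbc3 (chr7:16308393-16318205, plus), Gdf15 (chr8:70629393-70632456, minus), Eda2r (chrX:97333840-97377216, minus) and Phlda3 (chr1:135766119-135769136, plus) complete the set. Bax overlapped Gm45808 and Sesn1 overlapped 9930024M15Rik on the same strand, and Cdkn1a overlapped AC167363.2 on the other strand. Such overlaps could have affected the counting of these genes, and how it treated them is not given in the sources used here.

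Promoter sequence is shown for the members that passed a test below and whose promoter held a perfect p53 half-site. RefSeq promoters (GRCm38.p6, 250 bases before to 50 bases after a gene start) were found for 9 members in 14 windows. Trp53inp1 had no entry. The motif searched is the p53 half-site consensus of 10 bases, with no mismatch and on both strands, which for this palindromic consensus are the same search. Capitals mark the half-sites, and every stretch ends before the gene start. The sequences read 5′ to 3′ on the strand of the gene.
Cdkn1a, chr17:29090886-29090957, plus strand: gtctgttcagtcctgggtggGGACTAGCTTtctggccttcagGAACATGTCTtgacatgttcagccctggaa
Ccng1, chr11:40755442-40755491, minus strand: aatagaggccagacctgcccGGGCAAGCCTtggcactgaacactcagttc
Mdm2, chr10:117710915-117710964, minus strand: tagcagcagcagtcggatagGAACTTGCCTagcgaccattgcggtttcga
Bax, chr7:45467070-45467119, minus strand: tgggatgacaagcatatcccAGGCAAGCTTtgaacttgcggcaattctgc
Sesn1, second promoter, chr10:41887246-41887295, plus strand: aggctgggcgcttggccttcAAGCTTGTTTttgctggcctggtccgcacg
A half-site was thus held by 5 members, in 5 of the 14 windows. Cdkn1a was the one member with 2, which began 73 and 51 bases before the start. Of all 32851 promoters in the same table, 2745 (8.36%) held at least 1 half-site. A match describes these letters only, and a window without a match says nothing about binding elsewhere.

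The 9 libraries held 49171 nuclei, 4576 to 6418 per mouse, and 10329520 to 18205984 UMIs per mouse, with a median of 1540 to 2031 UMIs per nucleus. Any pair of libraries shared 4 to 14 barcodes. Clusters were named as resembling a type from its marker genes, which left 10555 cardiomyocyte, 13444 endothelial, 14125 fibroblast and 9570 myeloid nuclei, and far fewer T, B, smooth muscle with pericyte, and Schwann nuclei. All markers of the 4 large types were higher in their own type than in the rest. The types were named from these same markers, so this is no test of the names. The lowest ratio to the rest was 1.10 for a myeloid marker and 1.95 for a cardiomyocyte marker. The heart label was borne out by the cardiomyocyte markers, all of which were detected.

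Levels are given in CPM, the UMIs of a gene per 1000000 UMIs summed over the nuclei of a type in one mouse. For gene levels over whole large types and over all nuclei, this sum was first scaled by trimmed means of M values. Marker sums, levels within clusters and pooled counts used the plain sum without this scaling. Values of these kinds set side by side are therefore on different scales. Fold changes are differences of log2(CPM + 1), which understate changes of low genes. Calls were made by limma over all genes tested and needed an absolute log2 fold change over 0.25 and a p of at most 0.05 after the Benjamini-Hochberg correction. A gene that passed is said to be called. The 2-sided exact permutation test of 3 mice against 3 cannot fall below 0.1 and gave at least that value for every member. Nothing in the labels ties the mice to separate batches. In the study's quality control, however, every sham library had fewer low-quality reads than any I/R or SBP library. Every sham library also had more reads with too many uncalled bases. Whether the sham libraries were sequenced apart is not stated, and such a difference could not be told apart from injury in comparisons with sham.

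Before the results, libraries and clusters that stood apart are described. I/R replicate 1 differed from the other I/R mice, with 77.7% of its cardiomyocytes in a cluster led by Gm17428 and Mhrt. That cluster held 0.106% of the cardiomyocytes in the I/R mouse with the fewest and 85.5% to 93.2% in sham mice. In SBP mice the share was 0.849% to 18.3%. The other cardiomyocyte cluster was led by Fstl4 and Myh7, the latter a fetal-type myosin. Myeloid nuclei shifted too: a cluster led by Gpnmb and Adam8 made up 4.44% ± 2.21 (SD, n = 3) of them in sham mice, 62.2% ± 17.2 in I/R mice and 53% ± 13.6 after SBP, while a cluster led by Cd163 made up 91.7% ± 2.27, 31.0% ± 17.0 and 41.3% ± 14.8. Among fibroblasts a cluster led by Tnc held 0.224% ± 0.0784 in sham and 22.8% ± 12.5 in I/R mice, and the rest lay in a cluster led by Abca8a. Differences over a whole type therefore mix the genes' levels within clusters and the shares of clusters.

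Transcripts of cardiomyocytes were found in the other large types, at 6.59 to 8.32 UMIs of the 6 cardiomyocyte markers per nucleus of fibroblasts, myeloid cells and endothelial cells, against 22.5 in cardiomyocytes. The level of these markers in endothelial nuclei was 4961 to 5338 CPM in sham mice, 2562 to 3562 in I/R mice and 2480 to 3065 in SBP mice. In fibroblasts it was 3667 to 4313, 1836 to 2481 and 1877 to 2383, and in myeloid nuclei it was 4095 to 4580, 1954 to 2607 and 1941 to 2441. No injured group overlapped the sham mice in these types. In cardiomyocytes themselves the markers reached 8130 to 9527 in sham and 7272 to 8414 in I/R mice. These values matter for members that are high in cardiomyocytes.

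Cdkn1a encodes p21, the inhibitor of cyclin-dependent kinases that stops the cell cycle when p53 is active. Its fold change of log2(CPM + 1) after I/R was the highest of the members tested in cardiomyocytes, endothelial cells and fibroblasts. Gdf15 was not tested in endothelial cells and fibroblasts. In cardiomyocytes it read 7.26, 4.11 and 5.15 CPM in the 3 sham mice, 22.8, 47.3 and 59.8 in the I/R mice, and 16.0, 9.87 and 22.0 in the SBP mice. All I/R mice were above all sham mice, and the SBP mice lay between them without overlap with either group. The log2 fold change of I/R against sham was 2.69 (SE 0.37, limma adjusted p = 0.00647), from 61 UMIs in sham to 408 in I/R cardiomyocytes. Cdkn1a was the only member called in cardiomyocytes, 1 of 10 members tested, where 0.936% of the 12709 genes tested were called. The 14 myeloid markers, none at 0, summed to 116 to 125 CPM in sham, 208 to 502 in I/R and 154 to 259 in SBP cardiomyocytes, against 3492 to 4492 in myeloid cells. The 6 fibroblast markers, none at 0, summed to 294 to 373 CPM in sham, 470 to 583 in I/R and 406 to 444 in SBP cardiomyocytes. For both lists every I/R mouse was above every sham mouse. Their part in the Cdkn1a values was not tested.

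In fibroblasts Cdkn1a rose by a log2 fold change of 2.37 (SE 0.59, limma adjusted p = 0.0325), from 8.77 ± 5.95 to 47.0 ± 27.4 CPM (SD, n = 3). The sham mice read 13.8, 2.23 and 10.2, the I/R mice 19.8, 74.6 and 46.6, and the SBP mice 30.1, 16.7 and 18.7. I/R replicate 1 was the lowest of its group, and the sham and I/R mice did not overlap. It was the only one of 9 members tested that was called in fibroblasts, beside 9.5% of 13777 genes. The call was lost in 9 of 17 alternative fits. One of these was the Abca8a cluster alone, where the sham mice read 13.5, 2.22 and 9.79 and the I/R mice 19.6, 82.3 and 46.0, a log2 fold change of 2.44 (SE 0.61, adjusted p = 0.0566). Trp53inp1 was called in that cluster (1.79, adjusted p = 0.0493). The myeloid markers in fibroblast sums read 333 to 573 CPM in sham and 470 to 1044 in I/R mice, with overlap.

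In endothelial nuclei the SBP mice overlapped both other groups. Sham mice read 37.1, 9.34 and 34.2, I/R mice 61.5, 131 and 154, and SBP mice 63.3, 25.3 and 39.3 CPM. The I/R mice lay above the sham mice, but the log2 fold change of 2.17 (SE 0.55) did not pass the correction (limma adjusted p = 0.0680). Without I/R replicate 1, the lowest of the I/R mice, it was 2.56 (adjusted p = 0.0449). Within the cluster led by Ccdc85a it was 2.34 (adjusted p = 0.0472), and within the cluster led by Tmem108 it was 1.66 (adjusted p = 0.402). It stayed uncalled in 16 of 18 alternative fits, all but the fit without I/R replicate 1 and that of the Ccdc85a cluster. In endothelial sums the myeloid markers went from 228 to 312 CPM in sham to 516 to 1042 in I/R mice, and the fibroblast markers from 587 to 745 to 950 to 1165, all I/R mice above all sham mice. Their part in the endothelial Cdkn1a values was not tested.

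Myeloid nuclei already held Cdkn1a in sham mice, at 51.9, 22.5 and 35.1 CPM. They read 40.5, 98.0 and 69.9 in I/R mice and 56.0, 48.6 and 52.4 in SBP mice. The sham and I/R groups overlapped, and the log2 fold change of 0.90 (SE 0.33) did not pass (limma adjusted p = 0.0801). Without I/R replicate 1, the lowest of the I/R mice, it was 1.24 (adjusted p = 0.0112). It stayed uncalled in 16 of 18 alternative fits, all but that fit and the fit without sham replicate 1. Within the Cd163 cluster the sham mice read 42.9, 23.7 and 35.3 and the I/R mice 52.8, 98.5 and 83.3, without overlap, a change of 1.17 (SE 0.33, adjusted p = 0.0900). In the Gpnmb cluster I/R mice read 39.0, 99.3 and 55.5. Its sham values rest on 12 UMIs, with 33.9 and 0 CPM in the 2 mice that entered the fit and 261 in sham replicate 1, left out with 14 nuclei, and the fitted change was 3.47 (SE 1.25, adjusted p = 0.0892).

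Over whole types, the I/R change of Cdkn1a was larger in cardiomyocytes than in myeloid cells of the same mice by 1.79 on the log2 scale (SE 0.31, limma adjusted p = 0.0381), in a test chosen after seeing the data. The call was lost in 9 of 16 alternative fits. The difference was not fitted within clusters, where the myeloid estimates above were 1.17 and 3.47. It was the only difference called among the members over the 6 pairs of large types. Of all genes tested, 1.53% were called for cardiomyocytes against myeloid cells, 0% for cardiomyocytes against endothelial cells, 0.692% against fibroblasts, 0.172% for endothelial cells against fibroblasts, 1.14% against myeloid cells and 3.82% for fibroblasts against myeloid cells. Between fibroblasts and myeloid cells the difference was 1.48 (SE 0.34, adjusted p = 0.0508). Over all nuclei, a sum in which the shares of cell types and levels within them cannot be told apart, Cdkn1a rose by 2.02 (SE 0.40, adjusted p = 0.0142).

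**Figure D1:**
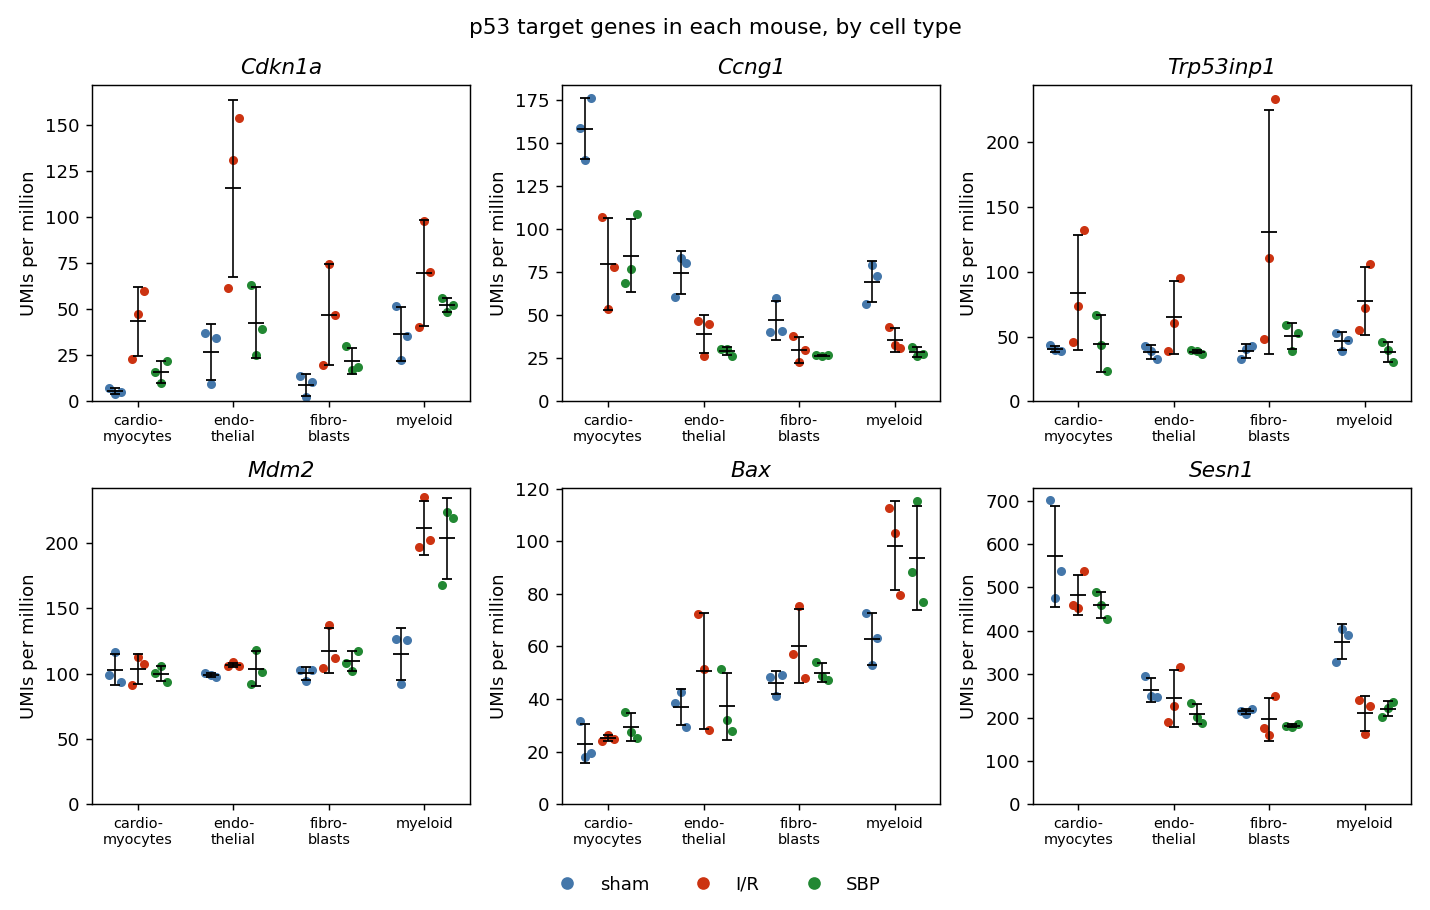
CPM of 6 p53 target genes (vertical axes, linear, starting at 0) in cardiomyocytes, endothelial cells, fibroblasts and myeloid cells. Each point is a mouse (blue sham, red I/R, green SBP), the bar is the mean and the whiskers are 1 SD over 3 mice. Cdkn1a in cardiomyocytes goes from 5.51 ± 1.60 in sham to 43.3 ± 18.8 in I/R mice, and Ccng1 lies below all sham mice in the I/R mice of all 4 types, called in endothelial and myeloid cells.

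Splitting the cardiomyocytes by cluster left the direction of Cdkn1a in place. Scaled by the cluster's own total, the cluster led by Fstl4 read 9.9, 0 and 5.8 CPM in sham mice, on 6 UMIs in all, and 17.9, 48.7 and 59.8 in I/R mice. Its log2 fold change was 3.18 (SE 0.82, limma adjusted p = 0.0972). The cluster led by Gm17428, where 1 I/R mouse had too few nuclei to enter and 2 remained, gave 2.42 (SE 0.50, adjusted p = 0.573). Neither cluster alone passed the correction. Of the small cell types, pooled per group and with exact Poisson 95% intervals for counting error only, smooth muscle cells with pericytes had 0 Cdkn1a UMIs in 79 sham nuclei (an interval of 0 to 15.8 CPM, and 12.9 at 3 counts), 8 UMIs in 37 I/R nuclei (72.9 CPM, 31.5 to 144) and 3 UMIs in 49 SBP nuclei (21.6 CPM, 4.45 to 63.1). Of these 37 I/R nuclei 27 came from I/R replicate 3. Sham B cells had 0 UMIs (0 to 9.70 CPM, and 7.89 at 3 counts), and I/R B cells had 6 UMIs (63.1 CPM, 23.1 to 137) in 54 nuclei, 35 of them from I/R replicate 1. For T cells 5 UMIs were counted in sham and 12 in I/R mice, and for Schwann cells 11 and 5, with intervals that overlapped.

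Ccng1, which encodes cyclin G1, a p53 target that recruits a phosphatase to MDM2, went the other way. In cardiomyocytes, where its level was highest in 9 of 9 mice, sham mice read 159, 141 and 176 CPM, I/R mice 107, 53.7 and 78.3, and SBP mice 68.8, 76.7 and 109. Both injured groups lay below all sham mice. The log2 fold change of I/R against sham was -1.03 (SE 0.24) and did not pass in cardiomyocytes (limma adjusted p = 0.0803). Of 18 alternative fits it was called in only 1, without I/R replicate 1, the I/R mouse nearest to sham (-1.26, adjusted p = 0.00932). In that fit 5.88% of all genes were called, against 0.936% in the main fit. Over the 18 fits the limma adjusted p went as high as 0.577.

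Ccng1 fell in endothelial and myeloid nuclei. Endothelial cells read 60.7, 83.2 and 80.6 in sham and 46.7, 26.4 and 44.7 in I/R mice, a log2 fold change of -0.94 (SE 0.22, limma adjusted p = 0.0317). This call was lost in 6 of 18 alternative fits, the Tmem108 cluster alone among them (-0.58, adjusted p = 0.442). Myeloid cells read 56.5, 79.5 and 73.0 in sham and 43.4, 32.5 and 30.9 in I/R mice, a change of -0.95 (SE 0.22, adjusted p = 0.0101). In both types the groups did not overlap. Fibroblasts went from 47.0 ± 11.4 to 30.0 ± 7.50 (log2 fold change -0.63, adjusted p = 0.0956). Over all nuclei Ccng1 fell by 1.09 on the log2 scale (SE 0.18, adjusted p = 0.00574). In the same mice the cardiomyocyte markers were lower in endothelial, fibroblast and myeloid nuclei over the ranges given above. The part of these transcripts in the Ccng1 values was not tested.

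Within the 2 large myeloid clusters Ccng1 had estimates of opposite sign, neither called. In the cluster led by Cd163, sham mice read 60.6, 89.3 and 73.4 CPM and I/R mice 32.8, 40.8 and 24.4, a log2 fold change of -1.17 (adjusted p = 0.0736). In the cluster led by Gpnmb, which had too few sham nuclei in 1 mouse to enter and only 6 sham UMIs in all, the fitted change was 0.69 (SE 0.76, adjusted p = 0.526).

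Mdm2 encodes the ubiquitin ligase that p53 induces and that degrades p53 in turn. It rose in myeloid cells, from 127, 91.9 and 126 CPM in sham mice to 197, 235 and 203 in I/R mice and 168, 223 and 219 in SBP mice. The sham mice lay below both injured groups. The log2 fold change of I/R against sham was 0.89 (SE 0.17, limma adjusted p = 0.00319). Elsewhere Mdm2 had log2 fold changes of 0.01 (95% interval -0.32 to 0.33) for cardiomyocytes, 0.11 (-0.17 to 0.39) for endothelial cells and 0.22 (-0.09 to 0.53) for fibroblasts, none called. The difference between cardiomyocytes and myeloid cells, -0.88 (SE 0.25), did not pass (adjusted p = 0.102).

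Mdm2 was called in neither large myeloid cluster alone. In the Cd163 cluster, sham mice read 122, 99 and 120 and I/R mice 113, 189 and 159 CPM, with a log2 fold change of 0.40 (SE 0.21, adjusted p = 0.371). The Gpnmb cluster, common only after injury, read 218, 245 and 249 in I/R and 208, 256 and 266 in SBP mice, and its fitted change of I/R against sham, on 2 sham mice, was 1.04 (SE 0.38, adjusted p = 0.0951). In the same myeloid sums the 6 fibroblast markers read 446 to 596 CPM in sham and 686 to 834 in I/R mice, every I/R mouse above every sham mouse, and the cardiomyocyte markers were lower. The part of cluster shares and of these transcripts in the Mdm2 values was not tested. Mdm2 was among the genes the clustering used, as was Gdf15, so that levels in clusters are a description for these genes.

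**Figure D2:**
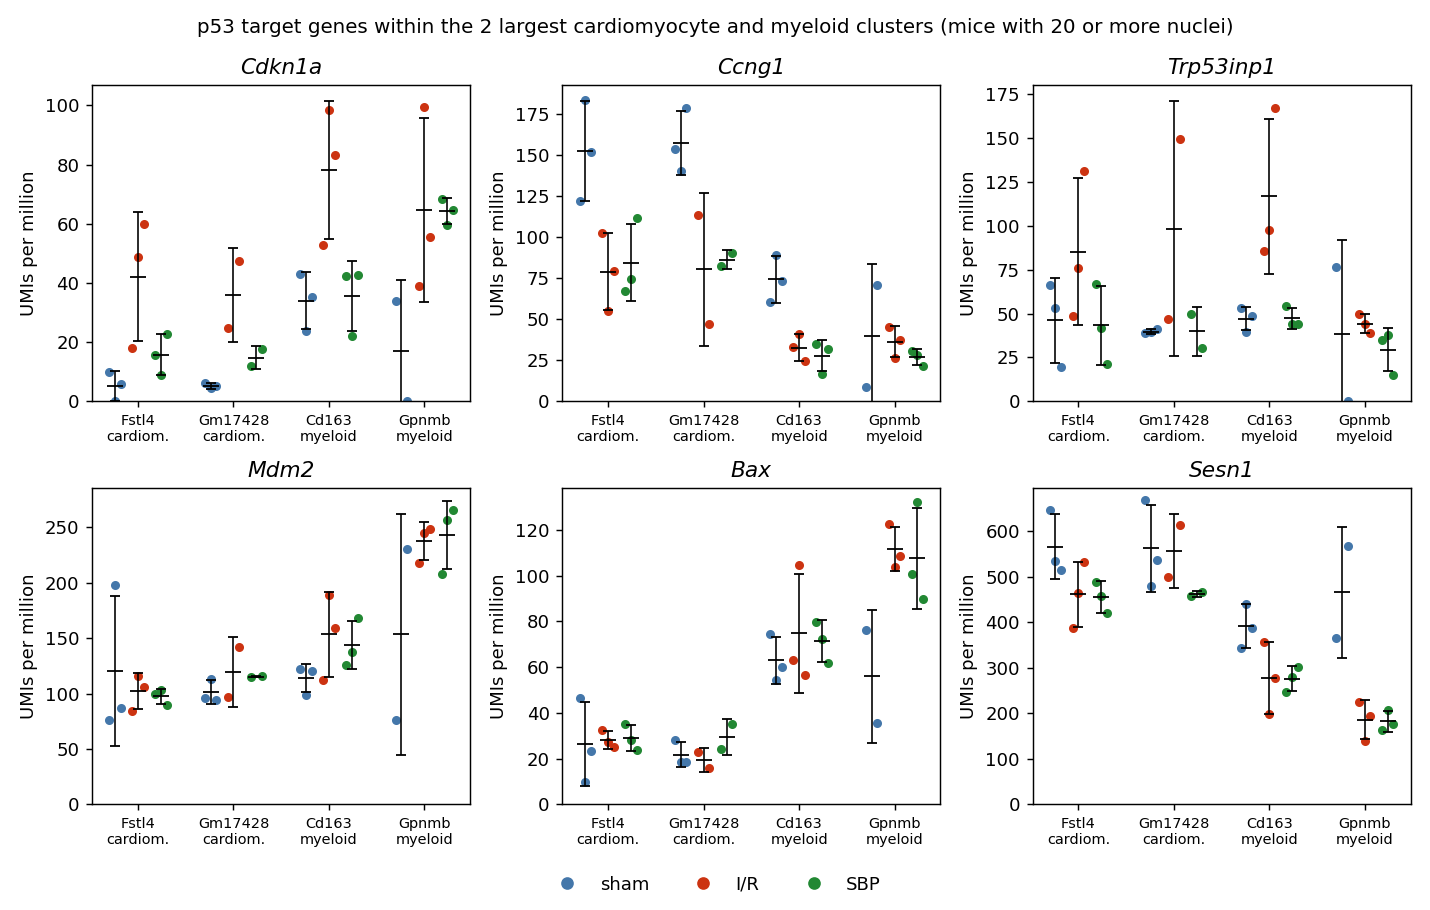
CPM of 6 p53 target genes (vertical axes, linear, starting at 0) within the cardiomyocyte clusters led by Fstl4 and Gm17428 and the myeloid clusters led by Cd163 and Gpnmb. Points are mice with at least 20 nuclei in the cluster (blue sham, red I/R, green SBP), bars are means and whiskers 1 SD. Sham values of the Gpnmb cluster rest on 2 mice and few UMIs, and Mdm2 averages 237 in I/R and 243 in SBP mice there.

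Bax, which encodes the pore-forming protein of the outer mitochondrial membrane, rose in myeloid cells from 72.6, 52.8 and 63.4 CPM in sham to 112, 103 and 79.4 in I/R mice (log2 fold change 0.63, SE 0.20, limma adjusted p = 0.0483). The groups did not overlap, but the call was lost in 10 of 18 alternative fits, and the adjusted p was 0.131 without I/R replicate 1. Within the Cd163 cluster, sham mice read 74.5, 54.4 and 59.9 and I/R mice 63.3, 104 and 56.6, a change of 0.21 (SE 0.26, adjusted p = 0.773). Within the Gpnmb cluster, on 12 sham UMIs in all, it was 1.29 (SE 0.36, adjusted p = 0.0441). In the other types Bax was not called. Endothelial I/R mice spread from 28.1 to 72.2 around sham values of 29.3 to 42.6.

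Bbc3 encodes PUMA, the BH3-only protein that p53 uses to start apoptosis. It had few UMIs, at 2.81 ± 1.13 CPM in sham and 4.95 ± 2.52 in I/R cardiomyocytes, on 32 and 48 UMIs, and was called in no type. In myeloid cells it read 10.4, 25.5 and 19.7 in sham and 12.8, 6.67 and 8.82 in I/R mice, with overlap. Its estimates had opposite signs in these types, 0.60 and -0.86, and the difference of 1.47 (SE 0.38) did not pass (adjusted p = 0.0864).

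Eda2r encodes a death-receptor family member that binds ectodysplasin A2. In endothelial cells, its type of highest mean level, it read 30.9, 35.8 and 31.6 CPM in sham, 18.5, 17.3 and 17.1 in I/R and 19.2, 22.6 and 31.4 in SBP mice. The I/R mice were tightly grouped below the sham mice. The change was -0.86 on the log2 scale (SE 0.21, limma adjusted p = 0.0448). The call was lost in 12 of 18 alternative fits, without I/R replicate 1 among them (adjusted p = 0.0565). With Ccng1 it made 2 of 9 members called in endothelial cells, where 3.41% of 13317 genes were called. Fibroblasts read 16.3 ± 4.58 in sham and 20.3 ± 3.94 in I/R mice. Myeloid cells held 4 Eda2r UMIs in sham and 37 in I/R mice, too few for the test. Phlda3, a repressor of the kinase Akt, read 16.4 ± 1.51 CPM in sham and 15.9 ± 9.64 in I/R fibroblasts. It was called in none of the 3 types where it was tested, and had too few UMIs in myeloid cells.

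Sesn1 encodes sestrin 1, which restrains mTORC1 and oxidants. Its level was highest in cardiomyocytes in 9 of 9 mice, and sham mice read 701, 476 and 537 CPM there, I/R mice 460, 452 and 537 and SBP mice 488, 460 and 428. It was not called in cardiomyocytes (log2 fold change -0.23, SE 0.15, limma adjusted p = 0.518). It fell in myeloid cells, from 328, 404 and 391 in sham to 239, 163 and 226 in I/R and 201, 223 and 236 in SBP mice. No injured mouse reached a sham mouse, and the change of I/R against sham was -0.85 (SE 0.16, adjusted p = 0.00278). With Mdm2, Bax and Ccng1 it made 4 of 8 members called in myeloid cells, where 15.7% of 12111 genes were called. Within the Cd163 cluster the change was -0.52 (adjusted p = 0.146), and within the Gpnmb cluster, on 2 sham mice, it was -1.10 (adjusted p = 0.0189). The cardiomyocyte markers were lower in the same myeloid sums, and the 6 B cell markers went from 511 to 569 CPM in sham mice to 44.6 to 141 in I/R and 152 to 329 in SBP mice. In sham mice the B cell markers read 17.1 to 32.8 CPM in cardiomyocytes, 39.3 to 68.7 in endothelial cells and 28.7 to 43.9 in fibroblasts, far below their myeloid level. Whether the nuclei named myeloid expressed these markers themselves was not tested. The part of the cardiomyocyte and B cell marker transcripts in the myeloid values was not tested either.

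Trp53inp1, which encodes a nuclear and autophagy-related protein that aids p53, was highest in one mouse. Fibroblasts read 32.5, 40.4 and 42.7 CPM in sham, 48.1, 110 and 234 in I/R and 59.0, 39.0 and 53.1 in SBP mice. I/R replicate 3 was highest in all 4 types, with 132 in cardiomyocytes, 95.2 in endothelial cells and 106 in myeloid cells. The log2 fold changes of I/R against sham were 0.91 for cardiomyocytes, 0.67 for endothelial cells, 1.47 for fibroblasts and 0.69 for myeloid cells, and none was called (limma adjusted p of 0.339, 0.181, 0.0744 and 0.0779). Without I/R replicate 1 the changes were 2.02 in fibroblasts (adjusted p = 0.00165), 0.98 in endothelial cells (adjusted p = 0.0222) and 0.91 in myeloid cells (adjusted p = 0.0266). These fits left out the I/R mouse with the lowest value and kept I/R replicate 3. Over all alternative fits the change went as low as 0.91, 0.35 and 0.44 in these types. The limma adjusted p went as high as 0.190, 0.395 and 0.276. Within the Cd163 cluster of myeloid cells, sham mice read 53, 39.7 and 48.7, I/R mice 85.6, 97.5 and 167 and SBP mice 54.0, 44.1 and 43.8, and the change of 1.24 (SE 0.26) passed (adjusted p = 0.0249).

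Gdf15, a secreted stress cytokine of the TGF-beta family, was near the limit of detection. Its UMIs in sham, I/R and SBP mice numbered 8, 23 and 23 in cardiomyocytes, 5, 17 and 6 in endothelial cells, 4, 29 and 18 in fibroblasts and 6, 87 and 57 in myeloid cells. It did not pass the filter on low genes in endothelial cells and fibroblasts and was not called where tested. Over all nuclei it read 0.60, 0.72 and 0.74 CPM in sham and 6.62, 2.50 and 1.71 in I/R mice, without overlap (log2 fold change 1.30, SE 0.39, limma adjusted p = 0.0557).

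Over all nuclei 2 of 10 members were called, beside 11.1% of 16845 genes, and 5 of 10 had sham and I/R mice that did not overlap, beside 30.5%. Within types, members whose sham and I/R mice did not overlap numbered 3 of 10 tested in cardiomyocytes, 4 of 9 in endothelial cells, 4 of 9 in fibroblasts and 5 of 8 in myeloid cells. Among all genes tested these shares were 16.4%, 20.4%, 24.9% and 33%. The median log2 fold change of the members in these types was 0.25, -0.10, 0.22 and 0.66, against medians of -0.04, -0.02, 0.00 and 0.07 over all genes tested. The plot of fold changes shows the members side by side.

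**Figure D3:**
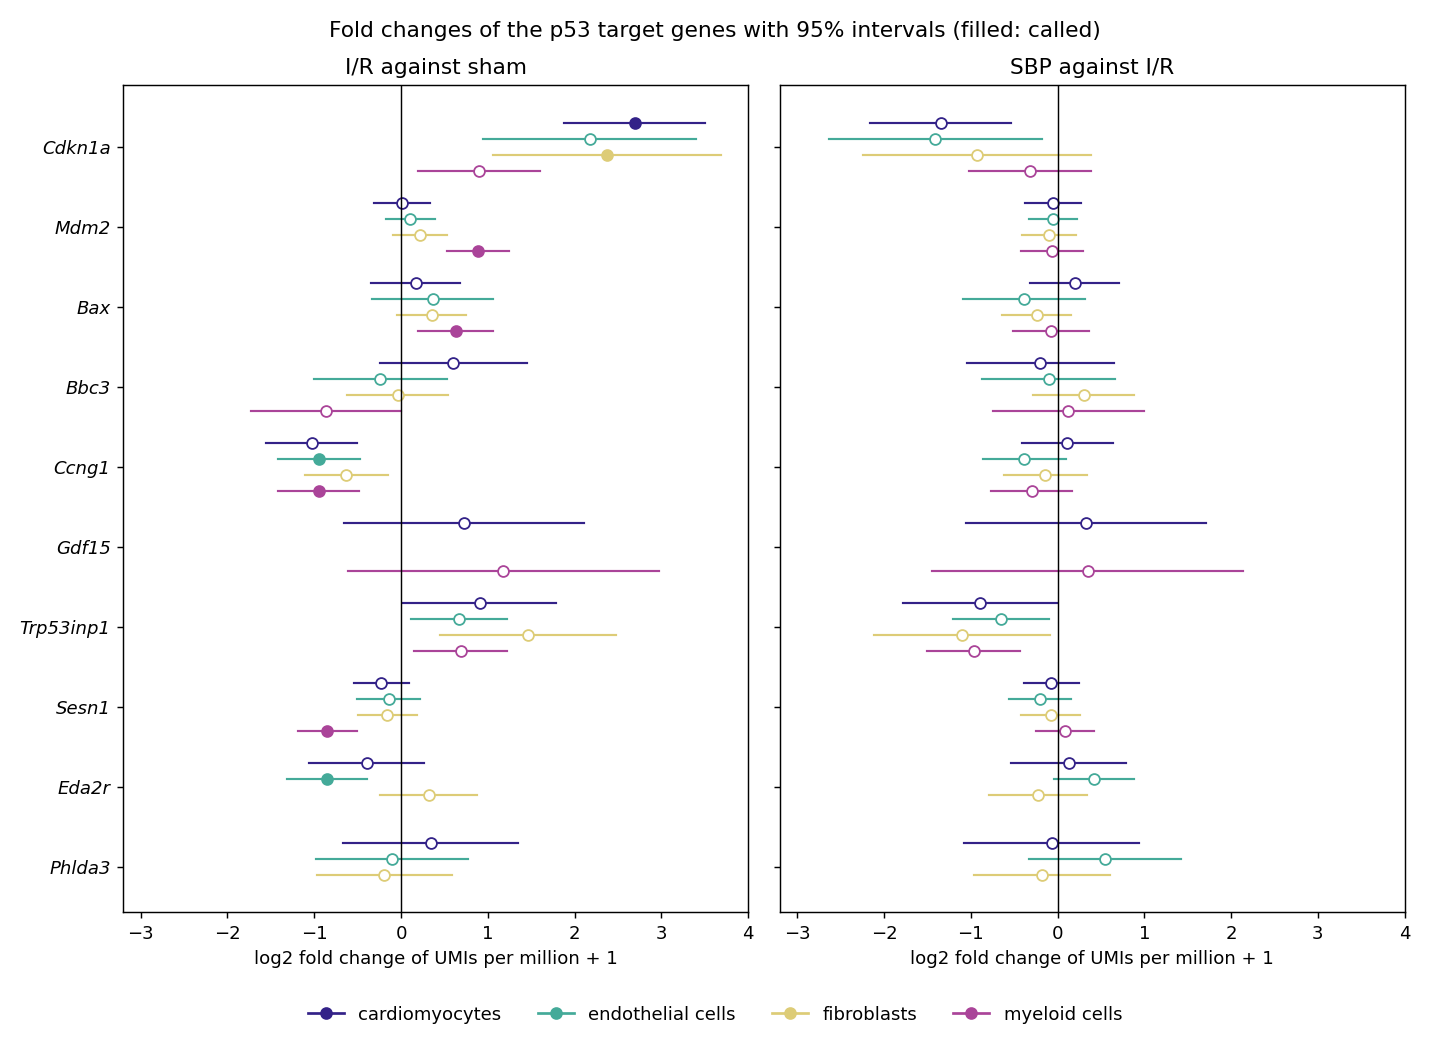
Log2 fold changes (horizontal axes) of the 10 p53 target genes for I/R against sham (left) and SBP against I/R (right), with 1 point and 95% interval per cell type. Filled points are called. Members without a point did not pass the filter on low genes in that type. Cdkn1a sits to the right of 0 in all types on the left, at 2.69 in cardiomyocytes, and no point is filled on the right.

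The comparison of SBP with I/R mice asks whether the drug altered the response to injury. It shares the I/R mice with the comparison above, so that a low or high I/R mouse moves both in opposite directions. No member was called in any of the 4 types or over all nuclei by limma, where 0% of all genes tested were called in each. At an unadjusted p under 0.05 there were 2 of 10 members over all nuclei and in cardiomyocytes, 2 of 9 in endothelial cells, 1 of 9 in fibroblasts and 1 of 8 in myeloid cells, beside 5.03%, 2.4%, 5.13%, 3.72% and 3.39% of all genes. These were Cdkn1a over all nuclei, in cardiomyocytes and in endothelial cells, and Trp53inp1 throughout.

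Cdkn1a was lower in SBP than in I/R cardiomyocytes by 1.35 on the log2 scale (95% interval -2.16 to -0.53, unadjusted p = 0.00368, adjusted p = 0.9997 by limma), lower in 3 of 3 SBP mice than in any I/R mouse. The nearest pair, I/R replicate 1 at 22.8 and SBP replicate 3 at 22.0 CPM, nearly touched. In endothelial cells the difference was -1.41 (95% interval -2.64 to -0.18), in fibroblasts -0.93 (-2.24 to 0.38) and in myeloid cells -0.32 (-1.02 to 0.39). Trp53inp1 read 45.5, 39.2 and 30.3 in SBP against 54.8, 71.9 and 106 CPM in I/R myeloid cells, a difference of -0.97 (95% interval -1.50 to -0.43) without overlap. In fibroblasts it was -1.10 (-2.12 to -0.09), in cardiomyocytes -0.89 (-1.78 to -0.01) and in endothelial cells -0.65 (-1.21 to -0.10). The remaining members had intervals that held 0 in every type.

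Groups that did not overlap between SBP and I/R mice were found for Cdkn1a in cardiomyocytes, Eda2r in endothelial cells and Trp53inp1 in myeloid cells, 1 member each beside 5.64%, 9.59% and 8.68% of all genes, and for 0 members in fibroblasts (8.69%) and over all nuclei (8.57%). Members with a value below 0 numbered 6 of 10, 7 of 9, 8 of 9 and 5 of 8 in cardiomyocytes, endothelial cells, fibroblasts and myeloid cells. The medians were -0.06, -0.20, -0.18 and -0.07, against 0.02, 0.00, 0.01 and -0.02 over all genes.

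SBP against sham, which shares its mice with both comparisons above, gave calls in the same myeloid members other than Bax. Mdm2 was higher by 0.82 (SE 0.17, limma adjusted p = 0.00679), Ccng1 lower by a log2 fold change of -1.25 (SE 0.22, adjusted p = 0.00263) and Sesn1 lower by -0.76 (SE 0.16, adjusted p = 0.00741), which made 3 of 8 members, beside 11.6% of all genes. Within the Cd163 and Gpnmb clusters alone Mdm2 was not called (0.33, adjusted p = 0.565, and 1.06, adjusted p = 0.0902). Sesn1 was not called in the Cd163 cluster (-0.51, adjusted p = 0.212) but was in the Gpnmb cluster (-1.12, adjusted p = 0.0180). Ccng1 was called in the Cd163 cluster (-1.44, adjusted p = 0.0309) but had an estimate of 0.27 (adjusted p = 0.815) in the Gpnmb cluster, on 6 sham UMIs. In endothelial cells Ccng1 was lower (-1.33, SE 0.22, adjusted p = 0.00812), 1 of 9 members beside 2.25%. Over all nuclei 1 of 10 members, Ccng1, was called (-1.22, adjusted p = 0.00824), beside 3.48%. Sham and SBP mice did not overlap for 5 of 10 members over all nuclei (30.1% of all genes), 2 of 10 in cardiomyocytes (23%), 2 of 9 in endothelial cells (23.2%), 4 of 9 in fibroblasts (25.4%) and 4 of 8 in myeloid cells (33%). In cardiomyocytes and fibroblasts limma called 0 members, beside 0.165% and 3.85% of all genes, with 2 members in each at an unadjusted p under 0.05, beside 13% and 18% of all genes. Cdkn1a lay at 1.34 (SE 0.37, adjusted p = 0.166) in cardiomyocytes. Without I/R replicate 1, a mouse outside this comparison that enters the shared spread, Cdkn1a (limma adjusted p = 0.0456) and Ccng1 (0.0430) were called there.

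The order of the 4 large types by mean log2(CPM + 1) over 9 mice differed among members. By this mean Mdm2 and Bax shared an order, as did Cdkn1a and Bbc3, but several neighbours in these orders did not separate within mice. Myeloid cells lay above endothelial cells in 5 of 9 mice for Cdkn1a and in 3 of 9 for Bbc3. These orders are descriptions, since the types were made by clustering the same nuclei. Mdm2 was highest in myeloid cells in 8 of 9 mice, and the other types followed within their spread, at 109 ± 12.3 in fibroblasts, 103 ± 7.54 in endothelial cells and 102 ± 8.79 in cardiomyocytes (SD over 9 mice). Bax was higher in myeloid cells than in fibroblasts in 9 of 9 mice and lowest in cardiomyocytes, below endothelial cells in 9 of 9. Bbc3 was lowest in cardiomyocytes, below fibroblasts in 9 of 9 mice, while its levels in the other types did not differ beyond their spread. Eda2r was higher in endothelial cells than in fibroblasts in only 7 of 9 mice. It was higher in fibroblasts than in cardiomyocytes in 9 of 9, and in cardiomyocytes than in myeloid cells in 8 of 9. Phlda3 was higher in fibroblasts than in endothelial cells in 8 of 9 mice. Cdkn1a was higher in endothelial cells than in fibroblasts in 9 of 9 mice, and myeloid and endothelial cells did not separate. Trp53inp1 and Gdf15 showed no neighbours in the order that separated in 9 of 9 mice.

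Of all genes that passed the filter in the 4 types (11005), those with levels most like a member over 36 values, 9 mice in 4 types, are given with Pearson's r as a description. The values share libraries and cell types, so that genes of the same type resemble each other. For Ccng1 these were Gm31251 (0.930), Dhrs7c (0.929) and Tecr (0.928), and for Sesn1 Lpin1 (0.931), Kcnj2 (0.926) and Ank (0.923). For Bax they were 1700017B05Rik (0.926), Cers6 (0.917) and Prpf38b (0.913), for Mdm2 Pgs1 (0.914), Zfp263 (0.906) and Med15 (0.890), and for Bbc3 Rnf167 (0.859), Calhm2 (0.856) and Leprot (0.841). Cdkn1a reached 0.805 with Rlim, 0.796 with Picalm and 0.795 with Sbno2, and Trp53inp1 0.690 with Ubald2, 0.684 with D230025D16Rik and 0.648 with Tbc1d15. Gdf15, Eda2r and Phlda3 did not pass the filter in all 4 types and were not compared.

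The gene for p53 itself was not called. Trp53 read 29.6 ± 1.85 CPM in sham and 25.3 ± 6.73 in I/R cardiomyocytes (a log2 fold change of -0.25, SE 0.21, limma adjusted p = 0.634), and 37.6 ± 9.14 against 42.8 ± 13.3 in myeloid cells. Mdm4, which encodes the partner of MDM2, read 226 ± 11.4 and 247 ± 26.4 in cardiomyocytes (log2 fold change 0.13, SE 0.13, adjusted p = 0.690). Neither was called in any type or comparison. Levels of transcripts do not measure p53 protein.

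Of 35 other p53 targets listed, 27 passed the filter in cardiomyocytes and 0 were called by limma for I/R against sham, with 1 at an unadjusted p under 0.05 and a median log2 fold change of -0.04, that of all genes tested, of which 0.936% were called and 14.1% had an unadjusted p under 0.05. In endothelial cells 31 passed and 0 were called, with 4 at an unadjusted p under 0.05 and a median of 0.15, beside 3.41% of all genes called and 17.5% at an unadjusted p under 0.05. In fibroblasts 34 passed, 4 rose and 1 fell, beside 9.5% of all genes called, with a median of 0.27 against 0.00 over all genes. The 4 were Ckap2 (2.91, adjusted p = 0.00309) and Psrc1 (1.83, adjusted p = 0.0349), which encode proteins of the mitotic spindle, Pidd1 (1.66, adjusted p = 0.0248), a scaffold of caspase activation, and Fdxr (1.28, adjusted p = 0.0167), a mitochondrial reductase. Klhl26 fell (-0.76, adjusted p = 0.0223). Chek1, the checkpoint kinase in the list of p53 regulators, rose in fibroblasts as well (2.03, adjusted p = 0.0170), 1 of 14 regulators that passed. Sham levels were low, at 1.28 CPM for Ckap2, 1.87 for Psrc1, 1.94 for Chek1 and 2.30 for Pidd1. The I/R mice read 18.2 ± 11.1, 10.9 ± 7.61, 11.7 ± 5.96 and 9.81 ± 4.29 in this order. These genes may have passed the filter on low genes through the injured mice. Within the large fibroblast cluster led by Abca8a, Pidd1 (1.08, adjusted p = 0.20), Fdxr (0.80, adjusted p = 0.122) and Chek1 (0.70, adjusted p = 0.475) were not called. Ckap2 and Psrc1 had 16 alternative fits, against 17 for these 3 genes, and no value within that cluster is given for them. The Psrc1 call was lost in 7 of 16 alternative fits. The part of the Tnc cluster in these values was not tested.

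In myeloid cells 32 of the other targets passed, 3 rose and 1 fell, 4 of 32 beside 15.7% of all genes called. Plk3, a stress kinase (1.2, limma adjusted p = 0.0306), Sesn2, a relative of Sesn1 (1.09, adjusted p = 0.0291), and Apaf1, the core of the apoptosome (0.46, adjusted p = 0.0431), rose, and Sulf2, a sulfatase (-0.78, adjusted p = 0.0301), fell. None of these 4 was called within the Cd163 or the Gpnmb cluster alone. With these clusters counted, the calls were lost in 12 of 18 alternative fits for Apaf1, 8 of 18 each for Plk3 and Sesn2 and 7 of 18 for Sulf2. Over all nuclei 5 of 35 rose, beside 11.1% of all genes called. The calls of Sesn2 (0.84, adjusted p = 0.0431), Apaf1 (0.49, adjusted p = 0.0459), Pidd1 (1.05, adjusted p = 0.0453) and Gtse1 (1.06, adjusted p = 0.0411) were each lost in 12 of 16 alternative fits, and that of Ckap2 (1.52, adjusted p = 0.0424) in 10 of 16. In SBP against I/R mice limma called 0 of the other targets in every type, and at an unadjusted p under 0.05 there were 1 of 27 in cardiomyocytes, 2 of 31 in endothelial cells, 2 of 32 in myeloid cells and 0 of 34 in fibroblasts, beside 2.4%, 5.13%, 3.39% and 3.72% of all genes. SBP against sham called 1 of 32 in myeloid cells, Plk3 (1.54, limma adjusted p = 0.0118), beside 11.6% of all genes, a call lost within both myeloid clusters. It called 1 of 34 in fibroblasts, Ckap2 (2.23, limma adjusted p = 0.0218), beside 3.85%, lost in 5 of 16 alternative fits. The sham level of Ckap2 there was 1.28 CPM.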

How the data were processed

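Nuclei from the hearts of 3 sham, 3 I/R and 3 SBP mice were sequenced by a droplet method that counts UMIs, and grouping followed the sample titles, in which every replicate is a separate mouse. The deposited values are on the natural log scale, made by the authors as ln(1 + 10000 × UMIs of a gene / UMIs of the nucleus). Per the labels, Cell Ranger 4.0 with STAR on GRCm38 and Seurat 3.2.0 came before. The methods of the study give other versions of these tools, and state a read filter, down-sampling of libraries, a minimum of 200 genes and a mitochondrial share below 10% per nucleus, and removal of mitochondrial genes. The deposited data held 49171 nuclei, fewer than the study reports after its quality control. The lowest number of genes in a nucleus was 405 to 460 per mouse, above the stated minimum. The filter behind this is not given. Whether counting used strand is not given in the sources used here.

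The log was undone and UMIs were recovered, at least 99.99938% of values lying within 0.1 UMI of a whole number. The depth was 10329520 to 18205984 UMIs per mouse, and low counts limit precision most for Gdf15, Bbc3 and Phlda3. Nuclei were clustered (scanpy 1.11.5, leidenalg 0.10.2, 2000 variable genes, 30 components, resolution 0.6) into 20 clusters, named by marker genes, and 93.35% of nuclei had the same type by their own marker scores. These scores used marker profiles taken from the named clusters. Neither this share nor the alternative that takes types from the scores is therefore independent of the clustering. Mdm2 and Gdf15 were the only members among the variable genes. A doublet caller marked 85 nuclei (0.173%), and these were left out. Doublets may remain, since so few were marked, and whether any were removed before deposit is not stated.

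UMIs were summed per mouse and type (at least 20 nuclei), scaled by trimmed means of M values, and log2(CPM + 1) was tested with limma 3.58.1 (trend and robust, R 4.3.3, all 9 mice sharing the spread), after the authors' thresholds of 0.05 and 0.25. Genes needed the level of 10 UMIs in a median library in 3 samples and 15 UMIs in all. On simulated data, 99% to 100% of 200 genes changed by 2 on the log2 scale were recovered in I/R against sham, over 11942 to 16726 genes, and 1.97% to 6.16% of the genes called were unchanged ones (5.71% in endothelial and 6.16% in myeloid cells). Smaller changes were not simulated, nor were changes of low genes, spreads that differ between genes, or a mouse that stands apart. The recovery therefore does not carry over to members that were low or varied between mice. Cdkn1a in endothelial cells, at 2.17, was not called. Intervals of pooled counts are exact Poisson intervals and cover counting error only.

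All members were named, with the genes called on 5 lists (other p53 targets, p53 and its regulators, the BCL2 family, CDK inhibitors, ATF4 stress genes), Trp53 and Mdm4, and the 3 genes most like each member that passed the filter in all 4 large types. The members and lists were chosen with earlier results of these data known. Alternatives were the pseudocount, filter, scaling, samples in the fit, a replicate block, doublets, marker scores as types and each mouse left out. Fits within clusters, equal weights of the 4 types and differences between types were added after seeing the data.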

Additional observations from a re-analysis of the deposited data

Results flagged for a closer look

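The effect of I/R on Cdkn1a differed between cardiomyocytes and myeloid cells of the same mice by 1.79 on the log2 scale (SE 0.31, limma adjusted p = 0.0381), which was picked out as a difference of the same contrast between cell types. The change was 2.69 in cardiomyocytes and 0.90 in myeloid cells, and Cdkn1a was higher in I/R than in every sham mouse in 3 of 3 I/R mice in cardiomyocytes. In myeloid cells I/R replicate 1, at 40.5 CPM, lay within the sham range of 22.5 to 51.9. Over 16 alternatives the difference ranged from 1.30 to 1.98, and its adjusted p from 0.0286 to 0.0986. In 9 of them the adjusted p was above 0.05. None of the 16 was a fit within clusters. The myeloid change of Cdkn1a was 1.17 (limma adjusted p = 0.0900) within the Cd163 cluster and 3.47 (SE 1.25, limma adjusted p = 0.0892) within the Gpnmb cluster, the latter above the 2.69 of all cardiomyocytes but resting on 2 sham mice and few UMIs. Markers of myeloid cells in cardiomyocyte sums read 116 to 125 CPM in sham and 208 to 502 in I/R mice, those of fibroblasts read 294 to 373 and 470 to 583, and their part in the difference was not tested.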

How the results depend on the processing

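Counts of members called changed with single mice and with single clusters. For I/R against sham, with 1 mouse left out at a time, they ran from 1 to 6 over all nuclei (2 with all mice), 1 to 2 in cardiomyocytes (1), 0 to 3 in endothelial cells (2), 0 to 3 in fibroblasts (1) and 3 to 5 in myeloid cells (4). The share of all genes called moved as well. In this order it ran from 4.39% to 16.3%, 0.271% to 5.88%, 1.17% to 5.34%, 4.56% to 11.5% and 9.41% to 15.1%. Over all nuclei there were 1 without I/R replicate 2, 6 without I/R replicate 3 and 4 without SBP replicate 2, beside 4.45%, 16.3% and 11% of all genes. Without I/R replicate 1 there were 2 in cardiomyocytes and 3 in fibroblasts, beside 5.88% and 9.67% of all genes. In endothelial cells 0 were left without sham replicate 2, sham replicate 3 or I/R replicate 2, and in fibroblasts 0 without sham replicate 2 or 3, I/R replicate 2 or 3, or SBP replicate 2 or 3. In these fits 1.17% to 1.49% of all genes were called in endothelial cells and 4.56% to 11.5% in fibroblasts. For SBP against sham the ranges were 0 to 2 over all nuclei (1; 0 without sham replicate 3, 2 without any one of the I/R mice), 0 to 2 in cardiomyocytes (0; 2 without I/R replicate 1), 0 to 1 in endothelial cells (1; 0 without sham replicate 2), 0 to 1 in fibroblasts (0; 1 without I/R replicate 1) and 3 to 3 in myeloid cells. Over all nuclei 0.598% of all genes were called without sham replicate 3 and 4.59% to 5.86% without an I/R mouse. In the fits named for cardiomyocytes, endothelial cells and fibroblasts the shares were 2.08%, 0.687% and 5.36%. For myeloid cells they ran from 4.93% to 13.9%. For SBP against I/R every alternative gave 0, beside at most 0.0924% of all genes.

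Scaling to total UMIs gave 4 called over all nuclei and 1 in endothelial cells for I/R against sham, and no filter on low genes gave 1 in endothelial cells. Beside these, 11.1%, 3.34% and 2.08% of all genes were called. With only the 6 samples compared, I/R against sham gave 1 in endothelial cells and 0 in fibroblasts, and SBP against sham gave 2 over all nuclei, 1 in cardiomyocytes and 1 in fibroblasts. The shares of all genes were 2.7%, 6.18%, 8.86%, 2.97% and 7.19% in this order. With the replicate block, I/R against sham gave 0 in endothelial cells and 0 in fibroblasts, beside 2.97% and 9.3% of all genes. Same-numbered mice correlated by -0.37 to 0.35 and differently numbered ones by -0.32 to 0.47, and 3 of 9 mice correlated best with their own number. No pairing by number was seen, but correlations of sums over all nuclei cannot show that the mice were unpaired. Single clusters gave, for I/R against sham, 0 in the Fstl4 and 0 in the Gm17428 cardiomyocytes, 0 in the Tmem108 endothelial cells, 1 in the Cd163 and 2 in the Gpnmb myeloid cells. Of all genes 0.715%, 0%, 1.13%, 1.6% and 18.7% were called in this order. For SBP against sham single clusters gave 0 in the Tmem108 endothelial cells and 1 in each of these myeloid clusters. There the shares of all genes were 1.05% for Tmem108, 1.51% for Cd163 and 19% for Gpnmb. Ccng1 turned sign in Gpnmb myeloid cells, to 0.69 (limma adjusted p = 0.526) for I/R against sham and 0.27 (limma adjusted p = 0.815) for SBP against sham. Why these values moved was not tested. Of single genes under an alternative, 897 values kept their direction and side of the threshold, 324 lost the call, 29 gained it and 2 turned sign. The exact permutation test cannot pass 0.05 with 3 mice a group.

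With 3 mice a group, I/R mice that differed from each other, RNA of cardiomyocytes in the other large types and few UMIs of Gdf15, Bbc3 and Phlda3 limit these results. Clusters were made from the same nuclei in which levels were read. SBP without injury was not measured. Read quality set the sham libraries apart from all others, as described above.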

Other observations

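Outside the p53 targets, genes of the BCL2 family, which hold or release the mitochondrial pore that Bax forms, were called in myeloid cells. Of 13 that passed the filter, 2 rose and 2 fell in I/R against sham mice, beside 15.7% of all genes called. Bcl2l11, which encodes the BH3-only protein BIM, rose by 1.10 on the log2 scale (limma adjusted p = 0.00900) and Bid by 0.94 (0.0236). Bcl2 itself changed by -0.72 (adjusted p = 0.00758 by limma) and Bik by -1.47 (0.0401), the Bik call lost in 10 of 17 alternative fits. The shares of the Cd163 and Gpnmb clusters shifted in the same mice, and in the same myeloid sums the B cell markers went from 511 to 569 CPM in sham to 44.6 to 141 in I/R mice and the cardiomyocyte markers from 4095 to 4580 to 1954 to 2607. In sham mice the B cell markers were far lower in the other large types, as given above, and whether myeloid nuclei expressed them was not tested. The part of the cluster shares and of these transcripts in the values of the family was not tested. Bcl2l11 (0.36 and 0.74) and Bid (0.38 and 0.22) were called in neither cluster alone, and Bcl2 (-0.39) and Bik (-1.22) were not called in the Cd163 cluster, while Bcl2 was in the Gpnmb cluster (-1.35, limma adjusted p = 0.00894). Mcl1, a survival gene of the family, rose over all nuclei (0.73, limma adjusted p = 0.0224) and in fibroblasts (0.57, limma adjusted p = 0.0486), the latter call lost in 14 of 17 alternative fits. It was 1 of 13 genes of the family in fibroblasts, beside 9.5% of all genes called, and with Bid (0.93, limma adjusted p = 0.0401, lost in 8 of 16 alternative fits) 2 of 14 over all nuclei, beside 11.1%. SBP against sham mice gave 1.03 for Bcl2l11 (limma adjusted p = 0.0162), 1.14 for Bid (0.0117) and 0.95 for the pore-former Bak1 (0.0487) in myeloid cells. The Bak1 call was lost in 14 of 18 alternative fits, and none of these 3 of 13, beside 11.6% of all genes called, was called in the Cd163 or Gpnmb cluster alone.

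Genes of the ATF4 stress response, part of whose targets p53 shares, were called in both directions. Asns, for asparagine synthesis, rose in I/R fibroblasts by 2.09 (limma adjusted p = 0.00423) but was not called in the Abca8a cluster alone (1.32, limma adjusted p = 0.196), and Atf3 rose over all nuclei by 1.49 (0.0144), a call lost in 2 of 16 alternative fits. Ddit3, which encodes CHOP, changed by -0.93 over all nuclei (limma adjusted p = 0.0133) and by -1.28 in endothelial cells (0.0157), the latter call lost in 5 of 18 alternative fits, the Tmem108 cluster among them. Of the ATF4 list 3 of 9 genes were called over all nuclei, beside 11.1% of all genes, 1 of 8 in fibroblasts, beside 9.5%, and 1 of 8 in endothelial cells, beside 3.41%. The third over all nuclei was Asns (1.17, limma adjusted p = 0.0204). SBP against sham called Atf3 (1.68, limma adjusted p = 0.0196) and Ddit3 (-0.77, 0.0489) over all nuclei, 2 of 9 beside 3.48%, Asns in fibroblasts (1.67, 0.0248), 1 of 8 beside 3.85%, Ddit3 in endothelial cells (-1.09, 0.0422), 1 of 8 beside 2.25%, and Atf3 in myeloid cells (1.08, 0.0404), 1 of 6 beside 11.6%. In this order they were lost in 4 of 16, 10 of 16, 5 of 17, 9 of 18 and 10 of 18 alternative fits. Of 4 CDK inhibitors that passed the filter in endothelial cells Cdkn1c was called (-1.21, limma adjusted p = 0.0195), which was lost in 4 of 18 alternative fits, the Tmem108 cluster among them (-0.98, limma adjusted p = 0.253). In SBP against sham it lay at -1.05 (limma adjusted p = 0.0472), lost in 11 of 18. Of 14 p53 regulators that passed in myeloid cells, 1 was called in each of I/R and SBP against sham, beside 15.7% and 11.6% of all genes. Cop1, a ubiquitin ligase for p53, rose in myeloid I/R cells (0.58, limma adjusted p = 0.0251), and Usp7, a deubiquitinase of p53 and MDM2, was higher in myeloid SBP than sham cells (0.54, limma adjusted p = 0.0262). Neither was called in the Cd163 or Gpnmb cluster alone, and the calls were lost in 6 of 18 alternative fits for Cop1 and 7 of 18 for Usp7.

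In smooth muscle cells with pericytes, too few for a test, Trp53inp1 had 7 UMIs in 79 sham nuclei (30.1 CPM, exact Poisson 95% interval 12.1 to 61.9), 24 in 37 I/R nuclei (219, 140.1 to 325) and 12 in 49 SBP nuclei (86.3, 44.6 to 151). Of the I/R nuclei 27 came from I/R replicate 3, the mouse highest for Trp53inp1 in the large types. T cells read 86.7 CPM for Ccng1 in sham (63.5 to 116), 30.6 in I/R (18.1 to 48.3) and 57.1 in SBP mice (36.2 to 85.7). Of 298 I/R T cells 206 came from I/R replicate 1, and by mouse Ccng1 read 24.5, 0 and 85.0 CPM in I/R and 93.6, 75.7 and 93.2 in sham T cells, so that the pooled value does not hold for I/R replicate 3. These intervals cover counting error only, and mice were pooled.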
